A study of Homo sapiens with 8 samples.

Results

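The mammalian SWI/SNF complexes (mSWI/SNF) are assembled from a catalytic subunit and a set of core subunits, and 10 genes for these were followed at the RNA level, out of 69215 genes counted per library. They were taken by name: SMARCB1, the ATPase genes SMARCA2 and SMARCA4, the core scaffold genes SMARCC1 and SMARCC2, the SMARCD1, SMARCD2 and SMARCD3 genes, SMARCE1, and ACTL6A. The question was whether RNA of the partner subunits followed SMARCB1 when SMARCB1 was switched on. All cells were G401, an established rhabdoid kidney tumor line without SMARCB1, and all groups shared this background. One engineered G401 line carried SMARCB1 under Tet-On control and the other carried GFP under the same control, and each was given 0.1 µg/ml doxycycline (Dox) or dimethylsulfoxide (DMSO) for 12 h. This gave 4 groups of 2 libraries, named by construct and treatment (SMARCB1 DMSO, SMARCB1 Dox, GFP DMSO, GFP Dox). Plates of a condition were pooled before RNA was taken, per the study's methods, and whether an engineered line was a clone is not given in the sources used here.

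SWI/SNF complexes use ATP to slide or evict nucleosomes. SMARCC1 and SMARCC2 form the dimer on which a complex is built, a SMARCD subunit and SMARCE1 join it early, and SMARCB1 completes the core before the ATPase module, SMARCA4 or SMARCA2 with the actin-like ACTL6A, is attached. A complex holds 1 ATPase and 1 SMARCD protein, so paralogues stand in for each other. SMARCB1 is part of the BAF and PBAF forms and absent from the non-canonical form. The protein grips the face of the nucleosome opposite the ATPase, and its loss is the defining lesion of rhabdoid tumors.

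Libraries held 29632090 to 37597477 reads assigned to genes. Mitochondrially encoded genes took 18.9% to 27.9% of these reads, and the highest share was in SMARCB1 DMSO replicate 1. The rhabdoid markers VIM, KRT8 and KRT18 were abundant in every library, at a summed level of 1570 to 1920 CPM (counts per million-read library, with library sizes scaled by TMM factors). A list of 11 markers of epithelial, leukocyte, endothelial, neuronal and muscle cells summed to 1.51 to 2.34 CPM in the GFP line and to 6.89 to 7.49 CPM in the SMARCB1 line, with the T cell marker CD3E at 0 in all libraries. MYH2, a muscle myosin, reached 5.61 CPM, and no other marker of this list exceeded 0.887 CPM. Their part in the differences between the lines given below was not tested.

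The ATPase genes showed the sharpest contrast among the partners, since SMARCA4 was well expressed and SMARCA2 was almost unread in the same cells. Their promoter sequences are therefore shown. The RefSeq windows on GRCh38.p14 hold the 250 bases before the start site, which is chr9:2015097-2015346 on the plus strand for SMARCA2 and chr19:10960780-10961029 on the plus strand for SMARCA4. Capitals mark GC boxes, that is GGGCGG or its reverse complement CCGCCC.
SMARCA2: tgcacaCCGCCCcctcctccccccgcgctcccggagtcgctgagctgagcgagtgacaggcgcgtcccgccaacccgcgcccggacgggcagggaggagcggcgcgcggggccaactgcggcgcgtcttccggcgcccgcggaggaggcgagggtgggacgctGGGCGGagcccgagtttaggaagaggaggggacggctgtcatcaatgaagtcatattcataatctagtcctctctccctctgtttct
SMARCA4: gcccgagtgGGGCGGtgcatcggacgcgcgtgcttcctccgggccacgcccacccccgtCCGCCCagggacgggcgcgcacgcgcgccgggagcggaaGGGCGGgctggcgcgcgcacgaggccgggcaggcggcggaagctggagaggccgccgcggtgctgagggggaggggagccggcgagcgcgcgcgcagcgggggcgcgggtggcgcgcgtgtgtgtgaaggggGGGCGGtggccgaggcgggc

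The SMARCA4 window held 4 GC boxes and 82.4% G or C. The SMARCA2 window, from a gene with almost no reads, held 2 GC boxes and 68.8% G or C. A start site window was on hand for 7 of the 10 genes, all but SMARCC1, SMARCC2 and ACTL6A. GC boxes, searched on both strands, were present in 5 of these 7 windows, namely SMARCA2, SMARCA4, SMARCD1, SMARCD3 and SMARCE1, against 42.6% of all 35116 RefSeq windows of this length. All 7 were CpG-rich (over 50% G or C and an observed to expected CpG ratio over 0.6), against 44.8% of all windows. A CCAAT box (CCAAT) was found in SMARCB1 and SMARCE1 (32% of all windows), the ETS core CCGGAAG in SMARCA2 alone (8.52%), and the NRF1 motif (GCGCA and GCGC with any base between them) in SMARCA4 alone (5.07%). The TATA box TATAAA (10.7%) and the E-box CACGTG (6.34%) were in none of the 7. These are letter matches in a fixed window and were not tied to any measurement of factor binding.

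SMARCB1 (ENSG00000099956, GRCh38 chr22:23786931-23838009, plus strand) is the induced gene, so its level checked the labels. It had 10 and 21 reads in SMARCB1 DMSO replicates 1 and 2, 30474 and 29383 in SMARCB1 Dox, and 0 in all 4 GFP libraries. In CPM these were 0.343 and 0.637 without Dox and 856 and 840 with Dox. Dox thus raised SMARCB1 by 10.72 on the log2 scale (SE 0.157, 95% interval 10.39 to 11.05, edgeR adjusted p = 5.15e-20). SMARCB1 moved from percentile 2.59 to percentile 96.6 of the RPKM of the genes tested, where RPKM is CPM divided by exon length in kilobases. Reads from the chromosomal gene and from the construct are counted together. The canonical transcript shares 2923 of its 5191 bases with DERL3 on the opposite strand, which had 0 reads in every library, so reads over those bases may be missing from the SMARCB1 count and its level per length if strand was not used.

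The reads in SMARCB1 DMSO were few but exceeded those of the GFP line. The 31 reads of both libraries, against 0 in GFP DMSO, put SMARCB1 12-fold higher with the GFP level set at a floor of 3 counts over the group. The exact 95% counting interval of the ratio, which also covers the error of the 31 reads, put it at least 9.19-fold higher. With Dox the floor gave 19100-fold over GFP Dox and the interval at least 15500-fold. A count of 0 in 1 library allows up to 0.0781 to 0.103 CPM. These counting intervals and floors cover counting error only, as reads are not independent molecules, whereas the intervals of log2 fold changes come from the fit and include the spread between libraries.

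**Figure D1:**
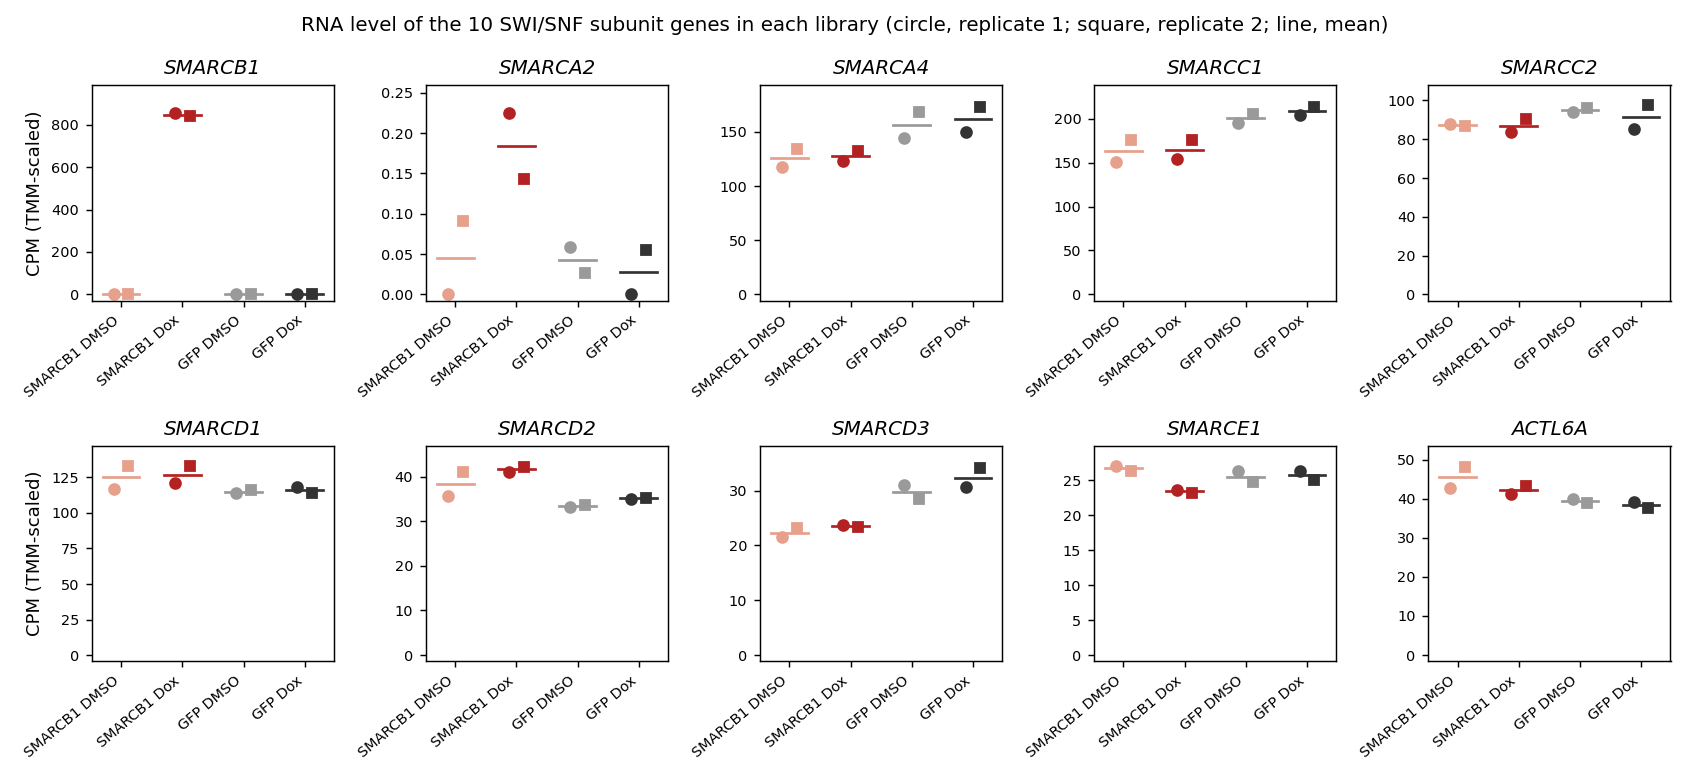
CPM (vertical axis, linear, a separate scale per gene) of the 10 subunit genes in each of the 8 libraries, by group; points are single libraries and lines are group means of 2. SMARCB1 stands at a mean of 848 CPM in SMARCB1 Dox alone, and SMARCA2 never exceeds 0.225 CPM. The libraries of the SMARCB1 line and of the GFP line do not overlap for SMARCA4, SMARCC1, SMARCD2, SMARCD3 and ACTL6A. The same holds for 39.4% of all genes tested.

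None of the partner genes passed the test when SMARCB1 was induced. Of the 9 partners, 8 passed the filter on low counts and 0 of these were called at an adjusted p under 0.05. Beside this, 14% of all 15931 genes tested were called (8.33% higher, 5.69% lower). With only 8 genes, a count of 0 is close to that background. None of the 8 had an unadjusted p under 0.05 either, and DESeq2 likewise called 0 of them. The median log2 fold change of the 8 partners was 0.02, beside -0.00 over all genes tested. The 95% intervals of all 8 lay between 0.767-fold and 1.23-fold, so that a larger change in any of them falls outside its interval. The summed level of the partners was 601 and 669 CPM in SMARCB1 DMSO and 612 and 664 CPM in SMARCB1 Dox, while SMARCB1 itself went from under 1 CPM to 848 CPM ± 10.9 (SD, n = 2). In these bulk libraries a change in the share of expressing cells and a change in RNA per cell cannot be told apart.

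SMARCA4 (chr19:10960932-11079426, plus strand) encodes the ATPase BRG1 and was the expressed ATPase gene. Its level was 118 and 134 CPM in SMARCB1 DMSO and 123 and 132 CPM in SMARCB1 Dox. The Dox values lay inside the range of the DMSO values, and the log2 fold change was 0.02 (95% interval -0.18 to 0.21, edgeR adjusted p = 0.942).

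SMARCA2 (chr9:1980290-2193624, plus strand) encodes the alternative ATPase BRM, which is often silent in rhabdoid lines. In the SMARCB1 line it had 0 and 3 reads with DMSO and 8 and 5 with Dox. In the GFP line it had 2 and 1 reads with DMSO and 0 and 2 with Dox. It did not pass the filter on low counts and was not tested in the main fit. Pooled over the group, 13 reads with Dox against 3 without gave a ratio of 3.82 with an exact 95% counting interval of 1.05 to 20.9, which leaves out the spread between libraries. When the filter was dropped, the edgeR log2 fold change was 1.88 with an adjusted p of 0.665. Per exon length SMARCA2 made up at most 0.119% ± 0.043 (SD, n = 2, SMARCB1 Dox) of the ATPase reads in any group.

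The SMARCC genes encode BAF155 and BAF170, the scaffold dimer. SMARCC1 (chr3:47585269-47782106, minus strand) was at 151 and 176 CPM in SMARCB1 DMSO and at 154 and 176 CPM in SMARCB1 Dox. SMARCC2 (chr12:56162359-56189567, minus strand) was at 87.7 and 86.6 CPM in SMARCB1 DMSO and at 83.5 and 90.4 CPM in SMARCB1 Dox. The groups overlapped for both genes. The log2 fold change was 0.02 (95% interval -0.17 to 0.20, adjusted p = 0.944) for SMARCC1 and -0.00 (-0.18 to 0.17, adjusted p = 0.991) for SMARCC2. SMARCC2 shares 719 exon bases with MYL6 on the opposite strand, and without a stated strand option reads there may have been left unassigned or misassigned.

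The SMARCD genes encode the alternative BAF60 subunits, which link the core to transcription factors. SMARCD1 (chr12:50085200-50100707, plus strand) was at 117 and 133 CPM in SMARCB1 DMSO and at 121 and 133 CPM with Dox. SMARCD2 (chr17:63832081-63843065, minus strand) was at 35.7 and 41 CPM in SMARCB1 DMSO and at 41 and 42.2 CPM with Dox. SMARCD3 (chr7:151238764-151277896, minus strand) was at 21.5 and 23.2 CPM in SMARCB1 DMSO and at 23.7 and 23.3 CPM with Dox. The Dox libraries of SMARCD2 and SMARCD3 lay just above their DMSO libraries before rounding, and those of SMARCD1 did not. None of these differences passed the test, with log2 fold changes of 0.02 for SMARCD1 (95% interval -0.15 to 0.20, adjusted p = 0.906), 0.12 for SMARCD2 (-0.07 to 0.30, adjusted p = 0.461) and 0.07 for SMARCD3 (-0.13 to 0.28, adjusted p = 0.706). SMARCD3 shares 1321 exon bases with CHPF2 on the opposite strand, so part of its count is uncertain.

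SMARCE1 (chr17:40624962-40648654, minus strand) encodes BAF57, a DNA-binding subunit of the BAF core. It was the partner with the largest estimate in this comparison, at 27 and 26.3 CPM in SMARCB1 DMSO and at 23.6 and 23.2 CPM in SMARCB1 Dox. Both Dox libraries lay below both DMSO libraries, and the log2 fold change was -0.19 (95% interval -0.38 to 0.01, unadjusted p = 0.0653, edgeR adjusted p = 0.23). In the annotation used here, SMARCE1 shares 2651 of the 5150 bases of its canonical transcript with another gene on its own strand, ENSG00000264058, which had 0 or 1 reads per library. Reads over those bases belong to both genes and could not be assigned to SMARCE1.

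ACTL6A (chr3:179562886-179588407, plus strand) encodes BAF53A, the actin-like protein of the ATPase module. It was at 42.8 and 48.2 CPM in SMARCB1 DMSO and at 41.2 and 43.2 CPM in SMARCB1 Dox. The groups overlapped and the log2 fold change was -0.11 (95% interval -0.29 to 0.07, adjusted p = 0.481). In all, 3 of the 8 partners (SMARCD2, SMARCD3 and SMARCE1) had Dox and DMSO libraries that did not overlap, against 51.2% of all genes tested.

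**Figure D2:**
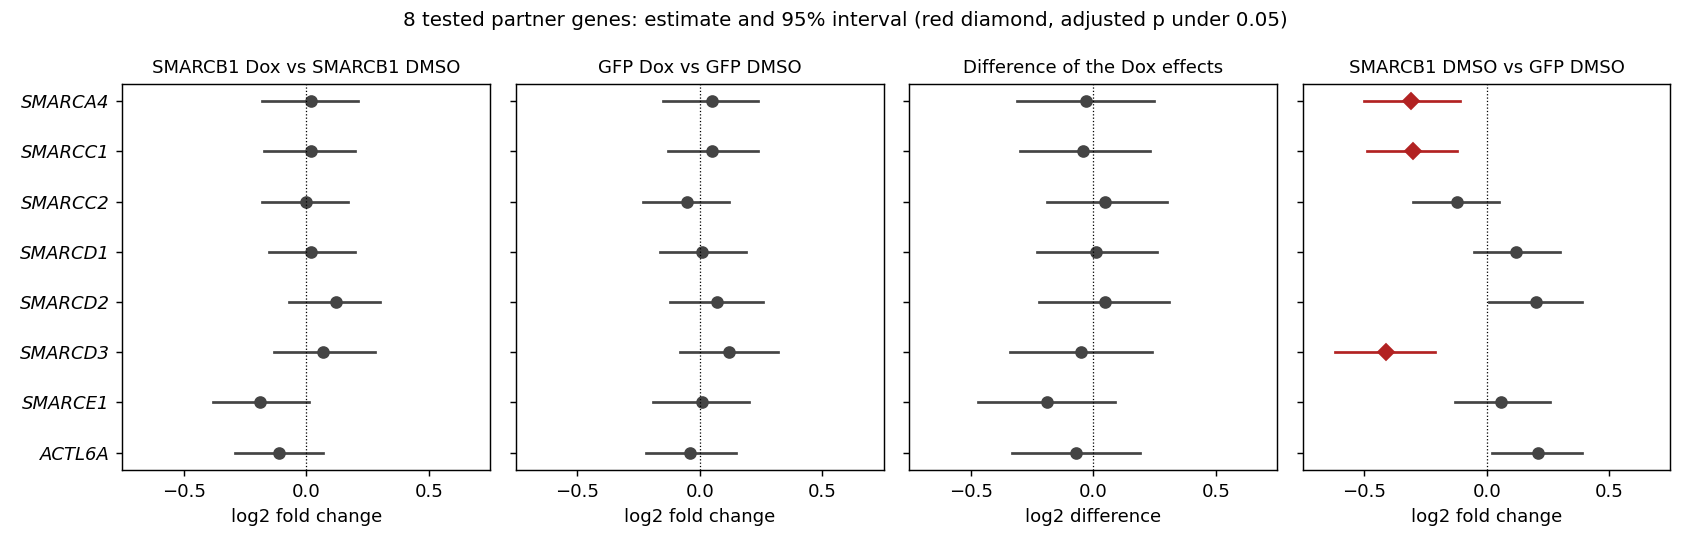
Log2 fold change with its 95% interval (horizontal axis) of the 8 tested partner genes in 4 comparisons; a red diamond marks an adjusted p under 0.05. All 24 intervals of the Dox comparisons and their difference include 0, and the 3 called values, for SMARCA4, SMARCC1 and SMARCD3, are all in SMARCB1 DMSO against GFP DMSO.

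Dox itself was tested in the GFP line, where 0% of the 15931 genes were called by edgeR, 0 by DESeq2, and 266 had an unadjusted p under 0.05. The fit shares the spread of all groups. Replicates differed more in SMARCB1 DMSO and SMARCB1 Dox (chi-square per degree of freedom 20.4 and 12.4) than in GFP DMSO and GFP Dox (7.65 and 8.99). The test may thus be less sensitive in the GFP line. A fit of the GFP libraries alone also called 0 genes. The log2 fold changes of the 8 partners ranged from -0.05 for SMARCC2 to 0.12 for SMARCD3, and their 95% intervals lay between 0.854-fold and 1.25-fold. SMARCD2 alone had groups that did not overlap, at 33.2 and 33.7 CPM with DMSO and 35 and 35.3 CPM with Dox, beside 26.8% of all genes. SMARCE1, at 26.3 and 24.7 CPM with DMSO and 26.3 and 25 CPM with Dox, had a log2 fold change of 0.01.

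Setting the Dox effects of both lines against each other asks whether partner RNA moved with SMARCB1 beyond any response to Dox. The difference (SMARCB1 line minus GFP line) was called for 0 of the 8 partners, beside 4.71% of all genes tested (3.07% higher, 1.64% lower). The values ran from -0.19 for SMARCE1 (95% interval -0.47 to 0.09, adjusted p = 0.536) to 0.05 for SMARCC2 and SMARCD2, and adjusted p was between 0.536 and 0.98. The intervals lay between 0.721-fold and 1.24-fold. For SMARCB1 no such difference can be estimated, because the GFP line had no read of it.

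The engineered lines were also compared without Dox. Taken without sign, the log2 fold changes of the 8 partners had a median of 0.20 here and 0.05 on induction of SMARCB1, beside 0.27 and 0.19 over all genes tested. In SMARCB1 DMSO against GFP DMSO, 3 of the 8 tested partners were called, all lower in the SMARCB1 line, beside 32% of all genes tested (16.3% higher, 15.7% lower). The count is thus close to the background. This comparison uses the same SMARCB1 DMSO libraries as the Dox comparison. The lines differ in their construct, in the few SMARCB1 reads without Dox and in any history of their own, and these cannot be told apart. The source of those reads was not tested.

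SMARCD3 differed most among the partners. It stood at 21.5 and 23.2 CPM in SMARCB1 DMSO and at 31 and 28.5 CPM in GFP DMSO, a log2 fold change of -0.41 (SE 0.0986, 95% interval -0.62 to -0.21, adjusted p = 0.00252). The 4 libraries of the SMARCB1 line (21.5 to 23.7 CPM) all lay below the 4 of the GFP line (28.5 to 34.1 CPM), and the value was called in 15 of 15 alternative settings. CHPF2, which overlaps SMARCD3 on the other strand, had 980 to 2109 reads per library, and its part in the SMARCD3 count was not tested.

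SMARCA4 was at 118 and 134 CPM in SMARCB1 DMSO and at 144 and 168 CPM in GFP DMSO (log2 fold change -0.31, SE 0.0946, adjusted p = 0.0156). SMARCC1 was at 151 and 176 CPM in SMARCB1 DMSO and at 196 and 206 CPM in GFP DMSO (log2 fold change -0.30, SE 0.0894, adjusted p = 0.0124). The groups did not overlap for either gene. Both were called in 13 of 15 alternative settings. With the replicate block the values were -0.31 (edgeR adjusted p = 0.000391) for SMARCA4 and -0.30 (0.00052) for SMARCC1. In each group replicate 2 was the higher library for both genes. Both calls were lost when some single libraries were left out, in fits where the other groups supplied the spread of the lone library. Without GFP DMSO replicate 2 the values were -0.20 (adjusted p = 0.253) for SMARCA4 and -0.27 (0.102, SE 0.115) for SMARCC1, and without SMARCB1 DMSO replicate 1, the library with the highest mitochondrial share, they were -0.22 (0.151) and -0.19 (0.171).

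The other partners were not called between the lines. ACTL6A (log2 fold change 0.21, unadjusted p = 0.0287, edgeR adjusted p = 0.0794) and SMARCD2 (0.20, unadjusted p = 0.0405, edgeR adjusted p = 0.104) had positive estimates, SMARCD1 was at 0.12, SMARCE1 at 0.06 and SMARCC2 at -0.12. ACTL6A passed the threshold without SMARCB1 DMSO replicate 1 (0.29, adjusted p = 0.0408), and so did SMARCD2 (0.29, adjusted p = 0.042). SMARCC2 passed with plain library totals (-0.24, edgeR adjusted p = 0.0414), where the median over all genes was -0.10. Relative to the all-gene median SMARCC2 was at -0.14 both there and in the main fit. In the main fit the median over the 8 partners was -0.03, beside 0.01 over all genes. Groups did not overlap for 7 of the 8 partners, against 64.7% of all genes tested. Over all 8 libraries the lines were separate for 5 of the 8 (SMARCA4, SMARCC1, SMARCD2, SMARCD3 and ACTL6A), against 39.4% of all genes.

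Levels of different subunits were compared per length only. By the union of annotated exons, SMARCD1 was the highest partner in the SMARCB1 line, at 25.5 ± 2.27 RPKM with DMSO and 25.9 ± 1.75 with Dox (SD, n = 2). SMARCC1 followed at 21.4 ± 2.38 and 21.7 ± 2.05 RPKM, and ACTL6A at 12.4 ± 1.04 and 11.5 ± 0.384 RPKM. SMARCD1 was above SMARCC1 in each library of the SMARCB1 line. In GFP DMSO SMARCC1 was the higher by this length, at 26.4 ± 0.921 RPKM against 23.4 ± 0.2 for SMARCD1. By the canonical and coding lengths SMARCD1 stayed the higher there, at 35 against 31.7 and at 74.4 against 60.8 RPKM, so the order in the GFP line depends on the length.

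In SMARCB1 Dox the remaining partners ran from SMARCC2 (9.47 ± 0.526 RPKM) and SMARCA4 (8.19 ± 0.433) through SMARCD2 (7.05 ± 0.139) and SMARCD3 (4.78 ± 0.0603) to SMARCE1 (1.27 ± 0.0151), with SMARCA2 at 0.00964 ± 0.00303 RPKM. SMARCE1, a core subunit, was thus at percentile 38 of the genes tested, with SMARCD1 at percentile 92.1, by the union of exons. Its length includes the bases shared with ENSG00000264058, whose reads could not be assigned. By each of the 3 lengths used, SMARCE1 stayed below SMARCD1 and SMARCC1. By coding length, however, it was at 19 ± 0.226 RPKM, above SMARCD3 (16.2 ± 0.205) and nearer to SMARCC2 (23.3 ± 1.29) and SMARCA4 (25.3 ± 1.34).

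Induced SMARCB1 stood above every partner, by a margin that depended on the length used. In SMARCB1 Dox it was at 51.3 ± 0.659 RPKM by the union of exons, 163 ± 2.1 by the canonical transcript and 717 ± 9.21 by the coding sequence. The ratio of SMARCB1 to SMARCD1 in replicates 1 and 2 was 2.1 and 1.87 by the union of exons, 4.47 and 3.99 by the canonical transcript, and 9.23 and 8.24 by the coding sequence. The part of the SMARCB1 transcript carried by the construct is not given in the sources used here, so none of these lengths can be preferred.

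**Figure D3:**
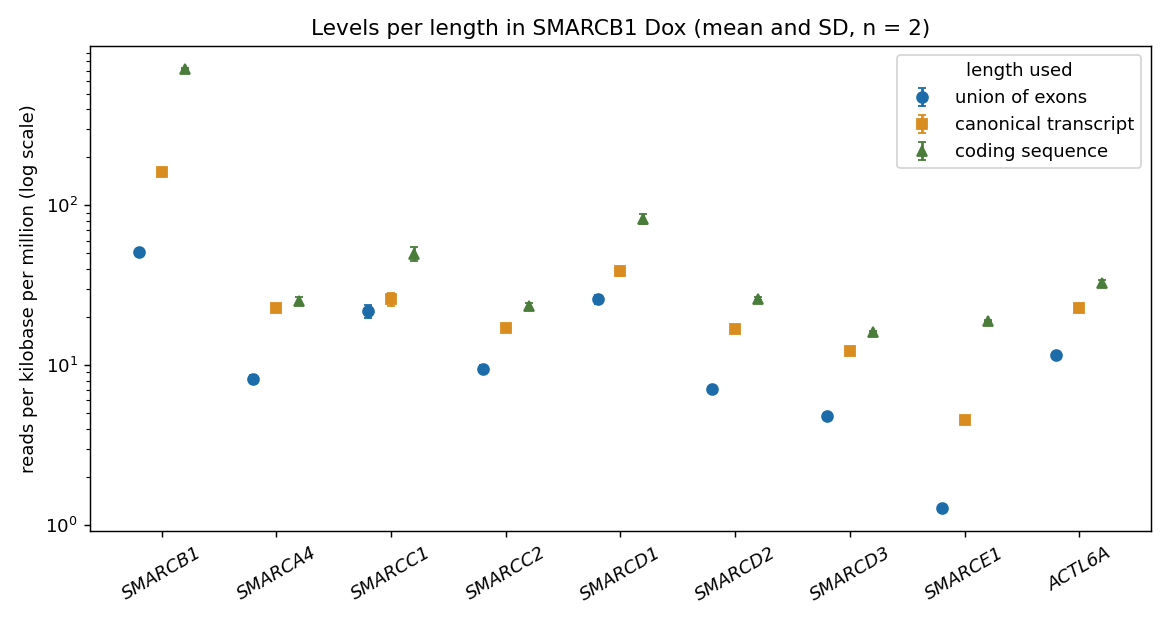
RPKM (vertical axis, log scale) of SMARCB1 and the 8 tested partners in SMARCB1 Dox, as mean and SD of 2 libraries, for 3 definitions of gene length. SMARCB1 is the highest gene by all 3, from 51.3 to 717, and SMARCE1 moves most among the partners, from 1.27 to 19.

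Within each paralogue family the make-up was compared per library. Per exon length, SMARCC1 made up 69.2% ± 2.55 of SMARCC reads in SMARCB1 DMSO and 69.6% ± 0.778 in SMARCB1 Dox (SD, n = 2). In the GFP line the share was 71.8% ± 0.354 and 73.4% ± 1.2. Dox and DMSO overlapped in the SMARCB1 line, at 67.4% and 71% with DMSO and 69% and 70.1% with Dox. The 4 libraries of the GFP line all lay higher, at 71.6% to 74.2%. Shares are given as a description, without a test.

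Among the SMARCD genes, SMARCD1 made up 69.8% ± 0.212 in SMARCB1 DMSO and 68.6% ± 1.34 in SMARCB1 Dox. SMARCD2 made up 17.8% ± 0.212 and 18.7% ± 0.566, and SMARCD3 12.4% ± 0.424 and 12.6% ± 0.778. The SMARCD2 share was higher in both Dox libraries (19.1% and 18.3%) than in both DMSO libraries (17.6% and 17.9%), while the other shares overlapped or met. In the GFP line SMARCD3 held a larger share, at 17.2% ± 0.99 with DMSO and 18.2% ± 1.41 with Dox, and its 4 libraries there (16.5% to 19.2%) lay above the 4 of the SMARCB1 line (12.1% to 13.2%). By the canonical transcript SMARCD1 made up 53% to 58.3% in the group means, so SMARCD1 was the main SMARCD RNA by either length.

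**Figure D4:**
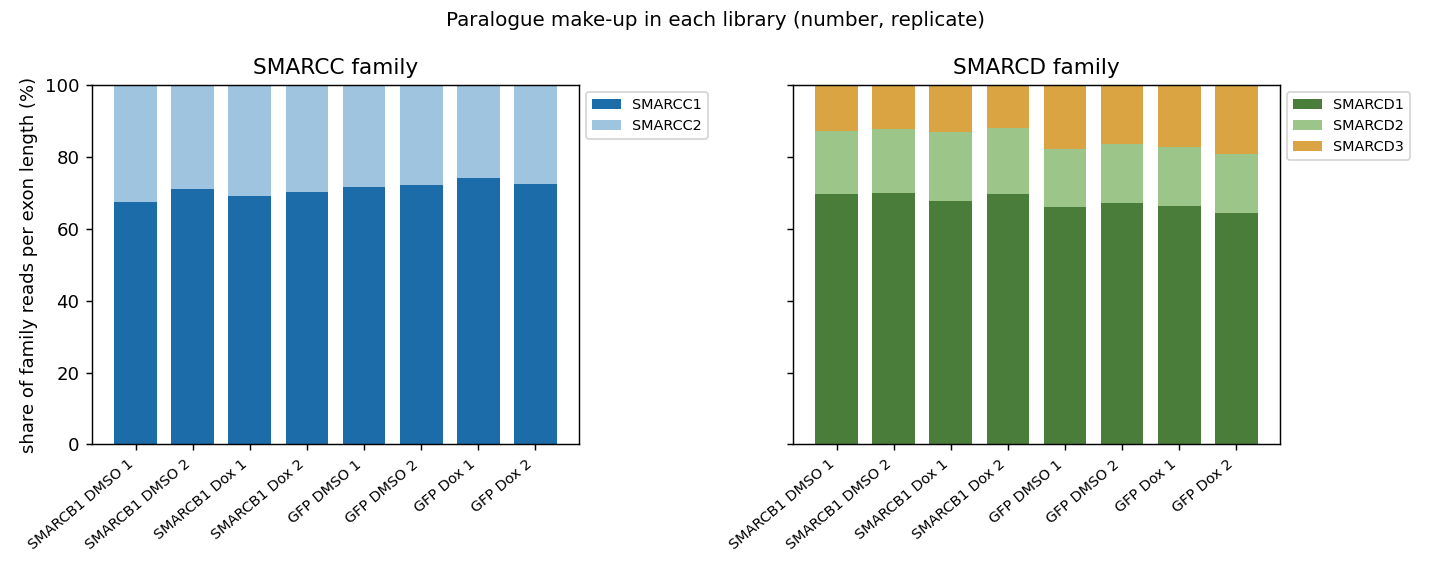
Share of family reads per exon length (vertical axis, percent) of SMARCC1 and SMARCC2 and of SMARCD1, SMARCD2 and SMARCD3 in each library (horizontal axis, group and replicate). SMARCD3 takes 12.1% to 13.2% in the libraries of the SMARCB1 line and 16.5% to 19.2% in those of the GFP line.

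The other subunits of the complexes were read from the same fit as a list of 21 genes. Some are particular to BAF, PBAF or the non-canonical form, and others are shared between forms. Of the 21, 18 passed the filter (not DPF3, BCL11B and ACTL6B). On induction of SMARCB1, 7 of the 18 were called, 2 higher and 5 lower, beside the 14% of all genes. DPF1, a neural PHD-finger subunit, rose by 0.81 on the log2 scale (SE 0.238, adjusted p = 0.0243), from 1.99 and 1.7 CPM to 3.45 and 3 CPM. BICRA, the scaffold of the non-canonical form, rose by 0.44 (SE 0.111, adjusted p = 0.00999), from 21.8 and 22.6 CPM to 29.4 and 30.7 CPM. Neither gene overlapped between Dox and DMSO, beside 51.2% of all genes tested that did not.

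The 4 largest falls were of BCL11A, PHF10, BCL7A and BICRAL. BCL11A, a zinc-finger subunit, was at 53.6 and 63.8 CPM with DMSO and at 34.1 and 41.8 CPM with Dox (log2 fold change -0.63, SE 0.118, adjusted p = 0.000777). PHF10, a PHD-finger subunit of the PBAF form, was at 229 and 206 CPM with DMSO and at 165 and 154 CPM with Dox (-0.45, SE 0.0805, adjusted p = 0.000516). Both lay lower with Dox in each library, beside 51.2% of all genes tested whose groups did not overlap in either direction. BCL7A fell by 0.37 and BICRAL, the paralogue of BICRA, by 0.34 on the log2 scale. The median over the 18 was -0.09, beside -0.00 over all genes. In the GFP line 0 of the 18 were called, and the difference of the Dox effects was called for PHF10 alone (-0.46, SE 0.114, adjusted p = 0.0191), 1 of 18 beside 4.71% of all genes. With plain library totals 5 of the 18 were called on induction, 3 higher and 2 lower, among 2483 genes called in all (2234 in the main fit). With a GC correction and the replicate block the count was 6, all lower, among 3084 genes in all. Neither DPF1 nor BICRA was called in that fit, nor without SMARCB1 DMSO replicate 1.

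Between the lines without Dox, 6 of the 18 were called, 4 higher in the SMARCB1 line and 2 lower, beside 32% of all genes. The higher genes were BCL11A (log2 fold change 1.00), BCL7C (0.58), BCL7A (0.51) and SS18 (0.22). The lower ones were BICRAL (-0.27) and PBRM1 (-0.25), the polybromo subunit of PBAF. BCL11A and BCL7A also fell on induction, but both comparisons use the same SMARCB1 DMSO libraries, so these results are not independent. The difference of the Dox effects was not called for either gene (edgeR adjusted p = 0.0634 for BCL11A and 0.136 for BCL7A). With the replicate block and a GC correction 9 of the 18 were called between the lines, 7 higher and 2 lower, among 6522 genes called in all (5105 in the main fit). PBRM1, BICRAL and SS18 were not called when GFP DMSO replicate 2 or SMARCB1 DMSO replicate 1 was left out.

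Another list held 24 SNF2-family remodellers that are no SWI/SNF subunits, and all 24 were tested. On induction of SMARCB1, 1 was called, beside 14% of all genes. This was RAD54L2, which rose by 0.26 on the log2 scale (SE 0.081, adjusted p = 0.0313). None was called in the GFP line or in the difference of the Dox effects. Their median was 0.05 on induction, near the 0.02 of the SWI/SNF partners. Between the lines 10 of the 24 were called, beside 32% of all genes (16.3% higher, 15.7% lower). Of these, CHD7 was higher in the SMARCB1 line (4.69, adjusted p = 1.46e-15) and 9 were lower, led by CHD5 (-2.71), HLTF (-0.57), SMARCA1 (-0.52) and SMARCAD1 (-0.40).

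Genes with a pattern like that of SMARCB1 were sought by the gap in log2 CPM (prior count 2) between the lower SMARCB1 Dox library and the highest of the other 6 libraries. For SMARCB1 this gap was 10.24. It was over 1 for 159 genes, 0.998% of those tested, and none of the 8 tested partners was among these. SMARCA2 did not pass the filter and could not appear, with 8 and 5 reads in SMARCB1 Dox and 0 to 3 elsewhere. The 3 genes nearest to SMARCB1 were LRRC4 (3.19), GUCY2C (3.13) and TAS1R1 (3.05). They encode a synaptic adhesion protein, a guanylate cyclase receptor and a taste receptor subunit. LRRC4 had 117 and 176 reads in SMARCB1 Dox and 6 to 11 in the other libraries, GUCY2C 27 and 44 against 0 or 1, and TAS1R1 113 and 78 against 3 to 8. All 3 were rare RNAs. LRRC4 lies within SND1 on the opposite strand and GUCY2C overlaps antisense RNAs, so their counts carry the uncertainty of an unstated strand option.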

How the data were processed

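RNA was measured in 8 libraries of the established line G401, which has lost SMARCB1, in 4 groups of 2 taken from the sample titles. The deposited values are unnormalized counts of reads per gene. The authors aligned with STAR and counted with HTSeq (exons, intersection-strict mode, GENCODE v42, hg38, per the labels and the study's methods). Tool versions and the strand option are not given in the sources used here. The labels name a ribosome profiling kit for these libraries and the methods a directional RNA kit, so the chemistry is uncertain. Entries naming no gene held 27% to 29.3% of reads and were left out. Reads over exons of overlapping genes are not assigned in this mode.

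Counts were analysed with edgeR 4.0.16 (R 4.3.3): the default expression filter kept 15931 genes, scaling was TMM, and a quasi-likelihood fit used all 8 libraries with 1 mean per group, with Benjamini-Hochberg adjustment over all genes tested and calls at an adjusted p under 0.05. There were 4 comparisons. CPM and RPKM use TMM-scaled library sizes, and intervals are 95%. Positions, symbols and lengths came from GENCODE v44 (62625 of 69215 identifiers matched), promoters from RefSeq. The fit was tested on simulated data. DESeq2 1.42.0, other scalings, filters and lengths, a replicate block and leaving out each library were alternatives.

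All members are named, the called genes of the other 2 lists by largest absolute fold change (at most 4 per direction), and the 3 genes most like SMARCB1. The members and lists were chosen with earlier results of these data known. Replicates differed beyond sampling noise (chi-square per degree of freedom 7.65 to 20.4). The study's methods give the experiments as done in duplicate, without saying how separate the cultures of the replicates were. The p-values thus measure the spread between these libraries, and how much of it is technical is not known.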

Additional observations from a re-analysis of the deposited data

Results flagged for a closer look

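The Dox effect on PHF10, the PBAF subunit gene, differed between the lines by -0.46 on the log2 scale (SMARCB1 line minus GFP line, SE 0.114, edgeR adjusted p = 0.0191), the result of a test of the difference itself, which called 4.71% of all genes. PHF10 was at 193 and 195 CPM in GFP DMSO and at 196 and 195 CPM in GFP Dox, beside 229 and 206 CPM in SMARCB1 DMSO and 165 and 154 CPM in SMARCB1 Dox. The call was lost with plain library totals and when GFP DMSO replicate 1, GFP DMSO replicate 2, GFP Dox replicate 1, GFP Dox replicate 2, SMARCB1 DMSO replicate 1 or SMARCB1 Dox replicate 2 was left out.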

How the results depend on the processing

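The count of called members kept its value on induction of SMARCB1 (SMARCB1 alone) and in the GFP line under every alternative, and no partner was called in either. For the difference of the Dox effects DESeq2 called 1 member, SMARCB1, for which the GFP line has no read. Between the lines 4 members were called, SMARCB1 and 3 partners, among 5105 genes called in all. With the replicate block and a GC correction 7 members were called, among 6522 genes in all. Without GFP DMSO replicate 2 SMARCA4 was at -0.20 and SMARCC1 at -0.27, against -0.31 and -0.30 in the main fit. Of the other subunits, the difference of the Dox effects was called for 1 in the main fit, among 750 genes called in all. The count was 0 with library totals (829 genes in all) and 2 without the filter (920). It was 3 with the replicate block (1282) and 3 with the block and GC correction (1274). PHF10 was not called in every fit with 1 library left out. The counts of 7 on induction and 6 between the lines fell in some fits with 1 library left out. They were lowest without SMARCB1 DMSO replicate 1 in both, and also without GFP DMSO replicate 2 between the lines. The number of genes called in all moved in these fits too. With the block and GC correction the induction count was 6, all lower, among 3084 genes called in all (2234 in the main fit). Between the lines it was 9 in that fit, 7 higher and 2 lower, among 6522 genes (5105 in the main fit). The cause of these shifts was not tested.

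Levels per length in SMARCB1 Dox moved by construction with the length used. By the canonical (chosen after seeing the data), longest coding transcript and coding lengths, SMARCA4 went from 8.19 to 22.9, 22.1 and 25.3 RPKM, SMARCB1 from 51.3 to 163, 163 and 717, SMARCD1 from 25.9 to 38.7, 38.7 and 82.3, and SMARCE1 from 1.27 to 4.55, 4.04 and 19. Plain library totals moved the median of all genes from -0.00 to 0.09 on induction and from 0.01 to -0.10 between the lines, and the share of higher calls from 59.4% to 80% and from 50.9% to 32.1%, respectively, and from 65.2% to 80.8% for the difference. Relative to that shifted median SMARCA4, SMARCC1 and SMARCD3 were at -0.32, -0.31 and -0.43 between the lines. Deviations of same-numbered libraries correlated weakly over the genes tested, at 0.0309 to 0.148, all positive. This does not settle whether replicate numbers pair the libraries. With the replicate block, 3149 genes were called on induction and 1282 for the difference, against 2234 and 750, no partner among them, and ACTL6A was gained between the lines (0.21, adjusted p = 0.0401). The block with the GC correction added ACTL6A (0.20), SMARCC2 (-0.16) and SMARCD2 (0.30) there. In that fit SMARCA4 moved from -0.31 to -0.19 and SMARCC1 from -0.30 to -0.39 between the lines, and both stayed called. On induction SMARCA4 moved from 0.02 to -0.12 and was not called. Fitting only the groups compared could not give the difference of the Dox effects.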
